A study of Mus musculus with 2 samples.

Results

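The Sp5/Frem1/Wnt7a cells were a small set of epithelial cells of the newborn mouse hair follicle (HF), 227 of 16453 cells in all, chosen by their transcripts of the transcription factor gene Sp5, the matrix protein gene Frem1 and the ligand gene Wnt7a. Single-cell RNA sequencing had been performed on keratinocytes from back skin at postnatal day 1, taken from the dermal fraction that holds the growing HFs and sorted for the tdTOMATO reporter. There were 2 libraries, 1 per genotype, both from batch 1 and both without a treatment. One was labelled PADI4 WT and the other PADI4 cKO, the K14-Cre Padi4 fl/fl genotype in which Cre, made under the keratin 14 promoter, removes Padi4 from keratinocytes. The number and sex of the animals behind each library were not given in the sources used here. Genotype, library and animal cannot be told apart, and for most cells sex cannot either.

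A cell was counted as a droplet with 2000 to 60000 unique molecular identifiers (UMIs, 1 for each captured transcript), 1000 to 8000 genes and at most 20% mitochondrial UMIs. It belonged to the set when Sp5, Frem1 and Wnt7a together gave at least 5 UMIs, gave more UMIs than Slc7a2, Npr3 and Mme together, and were joined by at least 1 UMI of the hedgehog receptor gene Ptch1. In the library labelled PADI4 WT, 98 of 8661 cells met this rule, a share of 1.13% with an exact binomial 95% interval of 0.920% to 1.38%. With the PADI4 cKO label, 129 of 7792 cells did, a share of 1.66% with an interval of 1.38% to 1.96%. These intervals, like all those that follow, cover counting error only, since each genotype had 1 library and no test between genotypes could be made. The set was deeper than the other cells, with a median of 19232 UMIs (4520 to 56384) against 14057 in the WT-labelled library and 21035 UMIs (6971 to 56916) against 15648 in the cKO-labelled library, and a rule on UMI numbers favours deep cells.

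Padi4, the gene that the cross targets, was counted first. It had 2 UMIs in the Sp5/Frem1/Wnt7a cells of each library, and its level in the other cells was 0.858 CPM (the gene's UMIs as a normalised count, relative to all UMIs of the cells) with the WT label and 0.718 CPM with the cKO label. Which part of the gene the reads came from was not analysed here, so this 3′ count did not check the genotype labels. The gene's level did not separate the libraries, and they are called by their labels throughout. Of the related Padi genes Padi3, an enzyme of the hair follicle, had 3 and 4 UMIs in the set and was lower than in the other cells (−1.58 and −1.10), Padi6 had 0 and 1 UMIs, and Padi1 and Padi2 had none. The libraries held 143938990 and 143945294 UMIs, 17 filtered barcodes were common to both, and none of these belonged to the set. A doublet score above 0.2 was given to 13 cells of the set with the WT label (13.3%, against 3.30% of the other cells) and to 8 with the cKO label (6.20%, against 3.80%). Among the 98 cells of the WT-labelled library 70 held Y-linked UMIs without Xist and 16 held Xist without Y-linked UMIs, while in the cKO-labelled library these numbers were 0 and 127 of 129. Over all filtered cells, 5383 of 8661 and 0 of 7792 held Y-linked UMIs without Xist. Genotype and sex were thus not separated for most cells.

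Hair follicles grow at birth from a bulb in which epithelial cells surround a cluster of mesenchymal cells, the dermal papilla. In this epithelium sonic hedgehog, Wnt, ectodysplasin and bone morphogenetic protein (BMP) signals act together, and the same pathways place and shape the follicle in the embryo. Sp5 is a zinc finger factor and a well-known target of Wnt/β-catenin signalling, Frem1 encodes a protein of the Fraser complex, which holds epithelium to the dermis at the basement membrane, and Edar is the receptor for ectodysplasin.

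The genes of the rule contributed unequally. Frem1 gave 55.5% and 52.2% of the 885 and 1291 UMIs summed over Sp5, Frem1 and Wnt7a with the WT and the cKO label, Sp5 gave 40.5% and 43.8%, and Wnt7a gave 4.07% and 3.95%. Sp5 had at least 1 UMI in 81 of 98 and 115 of 129 cells, Frem1 in 91 and 120, and Wnt7a in 25 and 37. All 3 genes were seen together in 19 and 31 cells, while 13 and 8 cells met the rule on Frem1 alone. Summed over the set, Sp5 stood at 165 and 193 CPM against 4.14 and 5.30 CPM in the other cells, and Frem1 at 226 and 230 CPM against 6.88 and 9.88 CPM. These differences were made by the rule and describe it. Ptch1, of which only 1 UMI was asked, had a median of 12 UMIs per cell in both libraries, and its summed level was 631 and 673 CPM against 456 and 532 CPM in the other cells.

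Cells just below the threshold and cells at it had much the same levels of Edar. With exactly 5 UMIs of the 3 genes there were 20 and 19 cells, in which Edar stood at 316 and 289 CPM, Shh at 240 and 235 CPM and Bmp2 at 204 and 224 CPM. With 4 UMIs, and so outside the set, there were 15 and 30 cells, in which Edar stood at 314 and 300 CPM, Shh at 280 and 354 CPM and Bmp2 at 155 and 184 CPM. Further from the threshold Edar varied more, at 207 and 162 CPM with 3 UMIs and at 226 and 376 CPM with 6. The condition on Slc7a2, Npr3 and Mme, markers of the lower proximal cup (LPC), a layer of the bulb, removed 66 of 165 and 89 of 218 cells with at least 5 UMIs of Sp5, Frem1 and Wnt7a. Only 1 and 0 cells were lost because they lacked Ptch1.

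Among the named markers of the set, Edar alone was not used by the rule. The markers were chosen with earlier results of these data known, so Edar describes the set and does not check its label. Edar had a UMI in 88 of 98 cells (89.8%) and in 121 of 129 (93.8%), with medians of 7 and 8 UMIs and highest values of 33 and 40 UMIs per cell. Among the other cells 35.9% and 40.3% held an Edar UMI. After each cell had been thinned to 2000 UMIs the shares were 43.9% and 50.4% in the set against 11.8% and 12.6% in the other cells, so that Edar was found more often in the set than in the other cells at equal depth in both libraries. In the cells most like the set, described further on, Edar was common too, with a UMI in 80.7% and 81.3% of the LPC group and in 76.6% and 74.3% of the Shh group, so it marks the set only loosely against these. The word progenitor, which the label also holds, was not checked by any of these genes, and the cells are called by the genes that chose them.

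**Figure D1:**
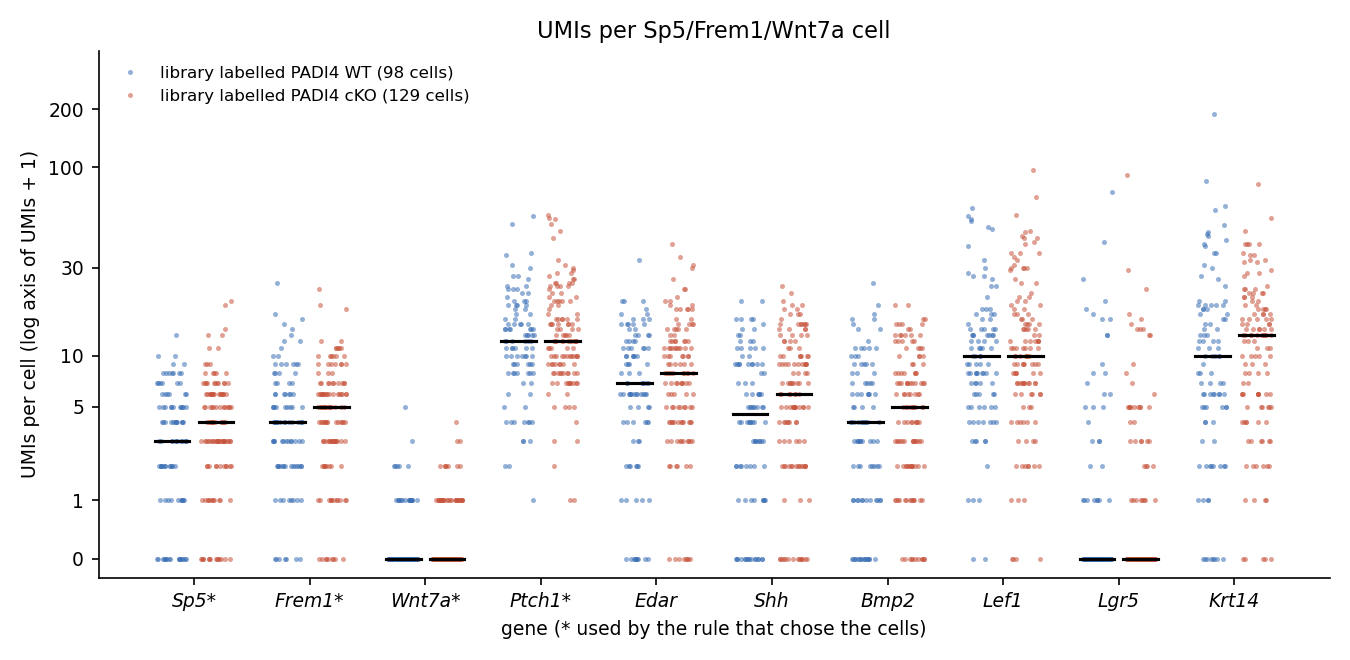
UMIs of 10 genes in each Sp5/Frem1/Wnt7a cell, on a log axis of UMIs plus 1, for 98 cells with the PADI4 WT label and 129 with the PADI4 cKO label; each point is a cell, the black line is the median and an asterisk marks the genes used by the rule. Edar, Shh, Bmp2 and Lef1, which the rule did not use, had medians between 4 and 10 UMIs in both libraries, while the median of Lgr5 was 0.

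Not every cell of the set was a clean keratinocyte. With at least 10 UMIs of fibroblast or melanocyte markers there were 4 cells with the WT label, all by fibroblast genes, and 5 with the cKO label, 2 by fibroblast and 3 by melanocyte genes; of all filtered cells 62 and 43 met this mark. Of these cells 3 and 3 had no Edar UMI, and 2 and 3 had met the rule on Frem1 alone. The fibroblast markers Col1a1, Col1a2, Col3a1 and Lum, the 4 of 6 that could be compared, were all higher in the set than in the other cells when these cells were kept. None of the 4 was higher without them, and the sum of the 6 fibroblast markers went from 260 and 213 CPM to 11.8 and 6.73 CPM. Endothelial, immune and red blood cell markers were near 0 in the set, with Cdh5, Cldn5, Ptprc, Tyrobp, Lyz2 and all 4 hemoglobin genes at 0 UMIs in both libraries. Counts over all genes are given below with and without these 9 cells, except among cells with Xist alone.

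Within each library, the level of every gene in the set was compared with its level in all other filtered cells, as a log2 ratio of summed CPM, and a gene was counted as higher or lower when the ratio lay beyond 1, a 2-fold difference, in the same direction in both libraries. Of 13542 genes with at least 100 UMIs in the cells compared in each library, 369 were higher (2.72%) and 415 were lower (3.06%). Among the lower genes 101 had 0 UMIs in the set in at least 1 library, so that their ratio is set by the 0.5 UMI added to each sum. A count of 0 has an approximate upper 95% limit of 3 UMIs. With 3 UMIs in place of 0, 36 of these genes still lay beyond −1 in both libraries. Without the 9 cells with markers of another type, 337 of 13483 genes were higher (2.5%) and 489 were lower (3.63%), 6.13% in all. The median ratio over all genes tested was −0.02 with the WT label and −0.01 with the cKO label.

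The hedgehog ligand gene was higher in the set. Shh, which encodes the sonic hedgehog ligand made by HF matrix cells, stood at 258 CPM against 50.4 CPM in the other cells with the WT label (log2 ratio 2.36, interval 2.23 to 2.48) and at 326 CPM against 56.7 CPM with the cKO label (2.52, 2.42 to 2.62). A Shh UMI was found in 82 of 98 and 115 of 129 cells. At 2000 UMIs per cell the shares were 34.7% and 45.7%, against 6.43% and 6.59% of the other cells, so the ligand gene was more often seen in the set at equal depth. Droplets with fewer than 100 UMIs, which hold free RNA and no cell, gave Shh at 56.6 and 59.4 CPM, close to the level of the other cells and far below that of the set. The ligand genes Ihh and Dhh had 0 UMIs in the set.

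Of the 12 hedgehog receptor and transducer genes none was lower, and their medians were −0.11 and −0.01. Gli1, the transcription factor gene most directly switched on by hedgehog signals, stood at 58.0 and 55.0 CPM against 37.8 and 48.1 CPM, ratios of 0.62 and 0.20 with the interval of the latter reaching from −0.04 to 0.42. Smo, which carries the signal across the membrane, differed by 0.18 and −0.01. Gli2 and Gli3, whose proteins act downstream of Smo, were at −0.32 and −0.71 and at −0.17 and −0.08. Gas1, a hedgehog co-receptor, stood at 40.0 and 40.7 CPM against 86.5 and 70.9 CPM and was counted as lower only without the 9 cells with markers of another type (−1.41 and −1.21).

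Among 19 Wnt ligand genes 14 could be compared, of which 4 were higher and 1 lower, against 2.72% and 3.06% of all genes. Their medians were 0.29 and 0.31. Wnt7a was 1 of the 4 and belongs to the rule. Wnt10b, an early ligand of the hair placode, stood at 97.0 CPM against 26.0 CPM with the WT label (1.90, interval 1.69 to 2.10) and at 130 CPM against 28.0 CPM with the cKO label (2.21, 2.05 to 2.36). Wnt3 stood at 58.9 and 61.9 CPM against 13.9 and 11.3 CPM (2.09 and 2.45). Wnt16 stood at 40.0 and 48.9 CPM against 9.86 and 4.81 CPM (2.03 and 3.35), and the size of its difference thus varied between the libraries. Wnt6 lay at the limit, at 0.95 and 1.23. Wnt11 was lower, with 6 and 7 UMIs in all, at −1.42 and −1.65.

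Wnt receptors did not share this pattern. Of 19 release and receptor genes that could be compared none was higher and 2 were lower, against 3.06% of all genes. Medians were −0.25 and −0.41. The 2 were the Frizzled receptor genes Fzd5, at 9.20 and 6.15 CPM against 24.9 and 25.6 CPM, and Fzd4, with 1 UMI in each library. The R-spondin receptor gene Lgr5, a marker of HF stem cells and of the LPC, stood at 156 and 128 CPM against 257 and 285 CPM (−0.72 and −1.15), whereas its relative Lgr6 stood at 314 and 338 CPM against 187 and 213 CPM (0.75 and 0.67). Lgr5 was seen in 14.3% and 11.6% of thinned cells of the set and in 26.8% and 30.6% of the other thinned cells. Ror1, a receptor for Wnt ligands, was at −0.99 and −2.15 and was counted as lower only without the 9 cells with markers of another type (−1.14 and −2.17).

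Genes that Wnt signals switch on and inhibitors of the pathway held the most higher members of any signalling list. Of 19 compared 7 were higher and 2 lower, against 2.72% and 3.06% of all genes, with medians of 0.57 in both libraries. The 7 were Sp5, which belongs to the rule, Nkd1, Tcf7, Notum, Wif1, Sfrp2 and Kremen2. Notum, an enzyme that inactivates Wnt ligands, stood at 52.0 and 58.8 CPM against 13.3 and 12.1 CPM (1.97 and 2.28). Wif1, which binds Wnt ligands outside the cell, stood at 72.2 and 128 CPM against 14.7 and 9.52 CPM (2.30 and 3.75). Sfrp2, a secreted Frizzled-related protein, had a UMI in 20 and 41 cells of the set and stood at 12.9 and 22.2 CPM against 1.91 and 2.53 CPM (2.78 and 3.14).

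Nkd1, an intracellular feedback inhibitor, stood at 80.9 and 89.5 CPM against 21.9 and 26.1 CPM (1.89 and 1.78). Kremen2, a co-receptor of Dickkopf inhibitors, stood at 99.8 and 125 CPM (1.72 and 2.06). Tcf7, a partner of β-catenin on DNA, was at 1.02 and 1.25. The target genes most used as readouts of the pathway differed less: Axin2 stood at 64.8 and 66.0 CPM against 39.8 and 40.3 CPM (0.71 and 0.72), Lef1, another DNA-binding partner of β-catenin, at 606 and 658 CPM against 432 and 443 CPM (0.49 and 0.57), and Znrf3, which clears Frizzled receptors from the membrane, at 0.63 and 0.67. The 2 lower genes were inhibitors, Sfrp1 at −1.11 and −1.60 and Sostdc1, which blocks BMP and Wnt signals, at −1.63 and −1.38. Of the 9 Sp factor genes 6 could be compared, and only Sp5, which the rule fixes, was higher.

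**Figure D2:**
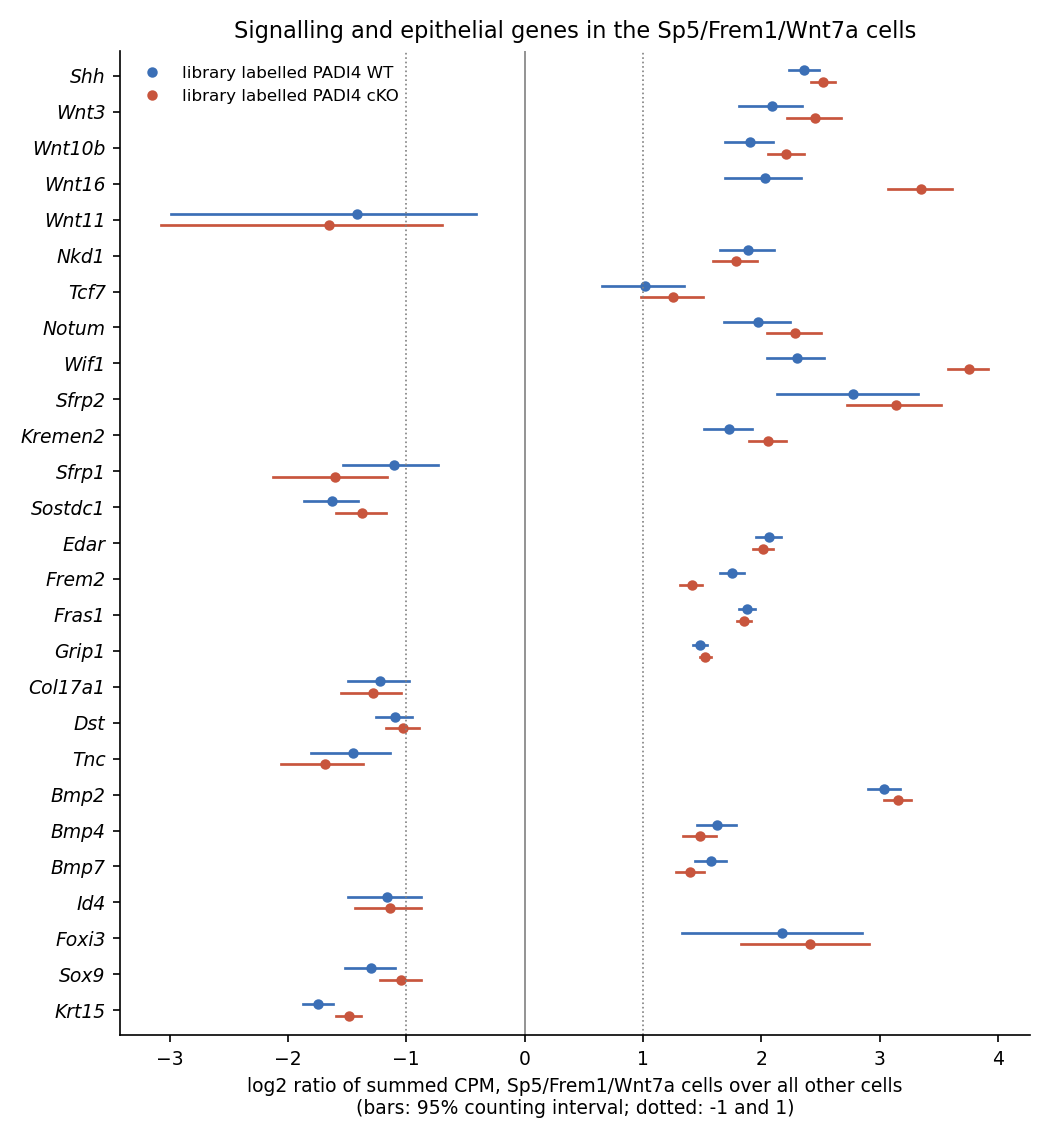
Log2 ratio of summed CPM between the Sp5/Frem1/Wnt7a cells and all other cells of the same library for 27 genes, in blue for the library labelled PADI4 WT and in red for that labelled PADI4 cKO; horizontal lines are 95% counting intervals and dotted lines mark −1 and 1. Bmp2 lay furthest to the right at 3.04 and 3.15 among genes that had nearly equal ratios in both libraries, while Wnt16 and Wif1 had clearly larger ratios with the cKO label.

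The promoters of Sp5 and Edar are shown because, of the windows searched, only theirs held letters that TCF/LEF factors recognise. These factors are the DNA-binding partners of β-catenin. The promoters of the rule genes Slc7a2, Npr3 and Mme were not searched. Windows of 300 bases, 250 before and 50 after a RefSeq transcription start on GRCm38.p6, were searched on both strands for CTTTGAT and CTTTGAA (TCF/LEF) and for ACCACCC (GLI). Sp5 held CTTTGAT 104 bases before its start, in the window at chr2:70474673-70474972 on the plus strand. Edar held CTTTGAT 233 bases before its start, at chr10:58675647-58675946 on the minus strand. A stretch of bases just after that RefSeq start was not found in the reference transcripts of Edar that were searched. Which transcript models the reads were counted on was not checked. The 250 bases before each start are given 5′ to 3′ on the strand of the gene, with the 7 matched bases in capitals.
Sp5: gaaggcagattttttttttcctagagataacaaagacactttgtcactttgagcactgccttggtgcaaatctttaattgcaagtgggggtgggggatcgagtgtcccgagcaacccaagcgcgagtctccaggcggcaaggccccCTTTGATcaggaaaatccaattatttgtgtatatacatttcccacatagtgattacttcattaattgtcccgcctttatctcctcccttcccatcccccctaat
Edar: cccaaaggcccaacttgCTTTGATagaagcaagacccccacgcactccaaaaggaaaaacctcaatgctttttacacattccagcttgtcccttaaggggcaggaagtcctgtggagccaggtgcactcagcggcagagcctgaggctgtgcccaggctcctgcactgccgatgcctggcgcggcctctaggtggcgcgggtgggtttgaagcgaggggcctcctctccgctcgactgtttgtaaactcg
The letters are common: CTTTGAT was present in 3.73% of 32851 such windows of 27025 genes, CTTTGAA in 5.14% and ACCACCC in 4.61%. None of the 3 motifs was found in the windows of Frem1, Wnt7a, Ptch1 or Axin2, and of 4 windows of Lef1, 1 held ACCACCC on the opposite strand, 57 bases before the start. As for Edar, the bases just after the starts of all 4 Lef1 windows were not found in the reference transcripts searched. A match describes letters and is not a measured binding site.

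In the ectodysplasin pathway Edar was the 1 higher gene of 7 compared, against 2.72% of all genes. None was lower, and the medians were 0.39 and 0.75. Edar stood at 358 CPM against 85.8 CPM with the WT label (2.06, interval 1.96 to 2.17) and at 414 CPM against 102 CPM with the cKO label (2.01, 1.93 to 2.10). Eda, its ligand, stood at 514 and 542 CPM against 419 and 476 CPM (0.30 and 0.19). Tnfrsf19, a related receptor, lay just under the limit at 0.95 and 0.96. Relb and Nfkbia, a subunit and an inhibitor of the NF-κB factor that acts downstream of Edar, were at 0.71 and 1.33 and at 0.30 and 0.75. The receptor gene thus differed by a similar ratio in both libraries, and no other member of the list was past 1 in both.

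In the Fraser complex all 4 compared genes were higher, with medians of 1.82 and 1.69 that include Frem1, which the rule fixes. The 3 genes outside the rule were all higher, against 2.72% of all genes. They were Fras1 and Frem2, the matrix proteins that assemble with Frem1, and Grip1, which delivers them to the basal side of the cell. Fras1 stood at 833 CPM against 227 CPM (1.88, interval 1.81 to 1.95) and at 913 CPM against 252 CPM (1.85, 1.80 to 1.91). Frem2 stood at 374 and 338 CPM against 111 and 127 CPM (1.76 and 1.41), and Grip1 at 1192 and 1316 CPM against 427 and 457 CPM (1.48 and 1.53). Fras1 had a UMI in 95 of 98 and 125 of 129 cells, Grip1 in 93 and 125, and Frem2 in 89 and 118. At 2000 UMIs per cell Fras1 was found in 75.5% and 72.9% of the set against 29.4% and 31.2% of the other cells, Grip1 in 71.4% and 79.8% against 40.3% and 42.5%, and Frem2 in 44.9% and 38.0% against 17.9% and 19.4%. Frem3, the remaining relative, had 0 UMIs.

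Other basement membrane and hemidesmosome genes had medians near 0. Over 24 compared the medians were 0.06 and −0.01, and 3 genes were lower, against 3.06% of all genes. Lama2 and Nid1 were higher only with the 9 cells with markers of another type, at 4.31 and 4.11 and at 2.01 and 1.53 with them and at −0.43 and −2.05 and at −0.40 and −0.05 without. The lower genes were Col17a1 and Dst, both parts of the hemidesmosome, at −1.22 and −1.28 and at −1.10 and −1.03, and the matrix protein gene Tnc at −1.45 and −1.69.

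Among 20 genes of the BMP pathway 3 ligand genes were higher and 1 gene was lower, against 2.72% and 3.06% of all genes. The medians were −0.08 and 0.04. Bmp2 stood at 230 CPM against 28.1 CPM with the WT label (3.04, interval 2.90 to 3.17) and at 260 CPM against 29.3 CPM with the cKO label (3.15, 3.04 to 3.26). A Bmp2 UMI was found in 82 and 118 cells, and at 2000 UMIs per cell in 33.7% and 36.4% against 4.27% and 4.33% of the other cells. Bmp4 stood at 144 and 152 CPM against 46.9 and 54.5 CPM (1.62 and 1.48), and Bmp7 at 218 CPM in both libraries against 73.2 and 82.8 CPM (1.57 and 1.40). Id4, a gene of the Id family of BMP targets, was lower at −1.16 and −1.14, and Id3 was at −1.07 and −0.85. Ligand genes were thus higher while the Id genes named were not.

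The fibroblast growth factor and Notch lists held no higher gene. Of 12 FGF pathway genes 1 was lower, the ligand gene Fgf5, with 1 UMI in each library, and of 10 Notch pathway genes 1 was lower, the ligand gene Dll1, with 6 and 3 UMIs. Their medians were −0.17 and −0.22 for FGF and −0.45 and −0.40 for Notch. Over all genes 2.72% were higher and 3.06% were lower.

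Genes of the hair placode and bud, the embryonic stages of the follicle, were split, with medians of 0.07 and 0.31. Of 10 compared 2 were higher and 2 lower, against 2.72% and 3.06% of all genes. Besides Wnt10b the higher gene was Foxi3, an ectodysplasin target of the placode, with 17 and 34 UMIs in all and 7.82 and 11.6 CPM against 1.78 and 2.22 CPM (2.18 and 2.41). Sox21, which takes part in hair shaft formation, was at 0.99 and 1.29 and was counted as higher only without the 9 cells with markers of another type (1.02 and 1.29). Lhx2, a transcription factor of HF progenitors, stood at 624 and 665 CPM against 334 and 404 CPM (0.90 and 0.72). Sox9, a factor of the outer root sheath (ORS) and its stem cells, was lower at −1.30 and −1.04, together with Sostdc1.

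Cell cycle genes did not separate the set. None of 42 S phase genes, 52 G2 and M phase genes and 11 cyclin and CDK inhibitor genes was higher or lower, against 5.79% of all genes past 1 in either direction. Medians were 0.11 and 0.04 for S phase and 0.02 and −0.04 for G2 and M. Summed over each list, S phase genes stood at 4120 and 4369 CPM in the set against 3755 and 4219 CPM in the other cells, and G2 and M genes at 8323 and 7050 CPM against 8160 and 7446 CPM. Ccnd1 and Ccnd2, the D-type cyclin genes with the most UMIs, were within 0.28 of 0 in both libraries. Of 19 immediate early genes, which handling of tissue can also switch on, Egr2 and Ier3 were lower, against 3.06% of all genes. None was higher, and the medians were −0.42 and −0.26.

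The basal keratin genes Krt14 and Krt5 stood below the other cells, short of the limit. Krt14 had at least 3 UMIs in 79.6% and 88.4% of the set, against 68.0% and 69.0% of the other cells, which were shallower, and stood at 723 and 634 CPM against 1201 and 811 CPM (−0.73 and −0.35), and Krt5 at 740 and 680 CPM against 1385 and 1247 CPM (−0.90 and −0.87). Krt15, a keratin of basal and stem cells, was the 1 lower gene of this list of 8, against 3.06% of all genes. It stood at 239 and 254 CPM against 803 and 710 CPM (−1.75 and −1.48).

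Markers of differentiated or neighbouring HF lineages were mostly lower or not past 1 in both libraries, with Shh and Mme as the higher genes outside the fibroblast list. Over all genes tested 2.72% were higher and 3.06% lower. Of 7 inner root sheath (IRS) markers 3 were lower, Krt25 (−1.80 and −3.18), Krt73 (−2.49 and −5.06) and the granule protein gene Tchh (−3.44 and −3.29). Of 6 ORS markers 3 were lower, Sox9, Krt15 and the factor gene Tbx1 (−1.07 and −1.69). The companion layer keratin Krt75 was at −3.22 and −3.64. Krt6a, of the same layer, had 0 UMIs, and with 3 UMIs in place of 0 it was at −1.59 and −2.05. Of 7 matrix markers Shh was higher and Foxn1, a factor of differentiating matrix cells, lower, with 9 and 7 UMIs. Among hair shaft markers Selenbp1 of the cortex, with 3 UMIs in each library, and Krtap8-1 of the medulla, with 3 and 0 UMIs, were lower. As a whole these lists were not lower in both libraries. The 5 cortex markers summed to 279 and 247 CPM in the set against 197 and 176 CPM in the other cells. The 3 medulla markers summed to 166 and 121 CPM against 145 and 158 CPM.

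Many markers of the upper follicle and epidermis were lower as well, against 3.06% of all genes. Of 5 suprabasal epidermal markers 4 were lower, Krt1, Krtdap, Lor and Sbsn, with a median of −1.37 with the WT label and of −1.77, or −1.29 with Lor at its limit of 3 UMIs, with the cKO label. Of 5 upper follicle markers Krt79 (−2.89 and −2.52) and Cst6 (−1.49 and −2.26) were lower. Of 5 sebaceous gland markers 4 were lower, Pparg, Cidea, Elovl3 and Mgst1, of which Mgst1 had the most UMIs (−1.87 and −2.74) and Elovl3 had none. Krt8 and Krt18, keratins of Merkel cells, had at most 3 UMIs in a library and were lower, and so were Acta2 and Tagln, genes of contractile cells (−5.33 and −2.99, −4.78 and −2.95). Of the 4 LPC markers Mme, which the rule limits, was higher at 1.75 and 2.09. Slc7a2, which the rule also limits, was not past 1 in both libraries. It had a UMI in 72 of 98 and 102 of 129 cells, against 25.4% and 33.5% of the other cells, which were shallower. Lgr5 went the other way, as given above.

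Outside the lists, some genes had larger ratios than most listed ones. By the smaller of the 2 libraries' ratios, the first 15 were Sp5, Rgs7bp, Frem1, Wnt7a, Lama2, Nptx2, Prrx1, Tub, Thsd7b, Limch1, Erbb4, Tspan15, Syt16, Scube1 and Cacna1g. Scube1, which encodes a secreted and membrane-bound protein with a role in hedgehog ligand release, stood out by its spread over cells: it had a UMI in 69 of 98 and 102 of 129 cells and stood at 160 and 186 CPM against 15.7 and 16.4 CPM (3.36, interval 3.19 to 3.52, and 3.50, 3.36 to 3.63). Thsd7b was seen in 42 and 62 cells (75.9 and 98.1 CPM against 5.36 and 5.79 CPM), and Limch1, an actomyosin-binding protein gene, in 49 and 60 cells (81.9 and 90.6 CPM against 6.06 and 4.87 CPM).

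Other leading genes were carried by a minority of cells. Rgs7bp, which anchors G protein regulators at the membrane, was found in 13 and 18 cells at 16.6 and 19.8 CPM against 0.626 and 0.486 CPM. Erbb4, a receptor for neuregulins, was found in 20 and 23 cells at 54.3 and 54.0 CPM against 2.56 and 4.16 CPM. Lama2 and Prrx1, a mesenchymal transcription factor, were found in 3 to 5 cells. Without the 9 cells with markers of another type Lama2, Rgs7bp and Prrx1 left this group, and Sgip1, Galnt12 and Cemip, a hyaluronan-degrading protein gene, entered it.

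The 10 lowest genes were Prr9, Ddit4l, Krt6a, Zfpm2, Cstdc5, Cyp2g1, Rbp2, Gfra3, Aldh3a1 and Csmd1. Each had at most 10 UMIs in the set in a library. With 3 UMIs in place of 0, the ratios were at most −2.70 and −2.12 for Prr9, −1.69 in both libraries for Ddit4l, −2.01 and −1.25 for Cyp2g1 and −1.15 and −1.24 for Rbp2. Cstdc5, with 10 and 1 UMIs, stood at 4.60 and 0.342 CPM against 83.4 and 7.72 CPM, and the other cells thus also differed between the libraries.

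The set was then compared with the 2 groups of cells most like it. An LPC group held cells with at least 5 UMIs of Slc7a2, Npr3 and Mme and fewer of Sp5, Frem1 and Wnt7a, 590 with the WT label and 847 with the cKO label. A Shh group held cells with at least 3 Shh UMIs outside the set, 753 and 846. Of these cells 103 and 128 were in both groups. The LPC markers in the LPC group and Shh in the Shh group are set by how the groups were made.

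Against the LPC group 140 of 9951 genes were higher in the set (1.41%) and 79 were lower (0.794%), 2.2% in all. Without cells that held markers of another type, in the set and in the LPC group, 132 of 9903 were higher (1.33%) and 101 lower (1.02%), 2.35% in all, and the fibroblast genes Col1a1, Col3a1 and Col1a2, which had been among the 5 highest with those cells, were no longer counted. Shh stood at 258 and 326 CPM in the set and at 58.9 and 51.3 CPM in the LPC group (2.13 and 2.67), and Bmp2 at 230 and 260 CPM against 36.8 and 33.3 CPM (2.65 and 2.97). Of 26 listed Wnt response and inhibitor genes 9 were higher, with Sp5 fixed by the rule and the other 8 not, among them Lef1 (606 and 658 CPM against 264 and 268 CPM, 1.20 and 1.29), Axin2 (64.8 and 66.0 CPM against 29.0 and 29.1 CPM, 1.17 and 1.18) and Notum (52.0 and 58.8 CPM against 10.1 and 5.93 CPM, 2.36 and 3.31). Of the Wnt ligands 4 were also higher, with Wnt10b at 2.26 and 2.59. Axin2 and Lef1, which were not past 1 against all other cells, thus were past 1 against the LPC group.

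Of the 4 LPC markers 3 were lower in the set than in the LPC group, against 0.794% of all genes, and Mme was not. Some genes outside the rule were lower too. The set and the LPC group were cut in opposite ways on Slc7a2, Npr3 and Mme. Genes that vary with these 3 can thus differ through the choice of cells. Lgr5 stood at 156 and 128 CPM against 324 and 381 CPM in the LPC group (−1.05 and −1.56), and Col14a1, a collagen gene, at 84.6 and 43.4 CPM against 326 and 361 CPM (−1.94 and −3.05). Dscaml1, with 6 and 9 UMIs, and the chemokine receptor gene Ackr3, at 16.1 CPM in both libraries against 75.8 and 75.3 CPM, were also lower. Edar and the Fraser complex genes other than Frem1 were between 0.47 and 0.98 above the LPC group, so none was past 1. S phase and G2 and M phase genes again gave no gene past 1. Ackr3, Col14a1 and Dscaml1 were singled out after their values were seen.

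Against the Shh group 233 of 9892 genes were higher in the set (2.36%) and 80 were lower (0.809%), 3.16% in all. Without cells that held markers of another type, 201 of 9866 were higher (2.04%) and 84 lower (0.851%), 2.89% in all, and Col3a1, Col1a2 and Col1a1, which had been among the 4 highest, were no longer counted. Besides Frem1, which the rule fixes, the 3 other compared genes of the Fraser complex were higher, with Fras1 at 833 and 913 CPM against 386 and 419 CPM (1.11 and 1.12), Grip1 at 1.13 and 1.28 and Frem2 at 1.72 and 1.37. Erbb4 (4.30 and 3.76), Limch1 (2.55 and 2.70), Thsd4 (1.64 and 1.88), Wnt16 (1.63 and 2.18) and the protease gene Tll1 (195 and 192 CPM against 20.8 and 31.3 CPM, 3.23 and 2.62) were higher too. Lef1, by contrast, stood lower in the set than in the Shh group, at 606 and 658 CPM against 945 and 1022 CPM (−0.64 in both libraries), and Axin2 at −0.47 and −0.48. Bmp2 was at 0.87 and 1.08 and Edar at 0.74 and 0.81 relative to the Shh group.

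IRS markers were lower in the set than in the Shh group. Of 7 such markers 6 passed −1, against 0.809% of all genes. Among them was Krt25 at 33.1 and 10.3 CPM against 260 and 208 CPM (−2.96 and −4.32). The claudin gene Cldn10, chosen after its value was seen, stood at 39.6 and 36.6 CPM against 192 and 214 CPM (−2.27 and −2.55). Of the 6 ORS markers 3 were higher in the set than in the Shh group, Tbx1, Adamts19 and Nfatc1, against 2.36% of all genes.

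**Figure D3:**
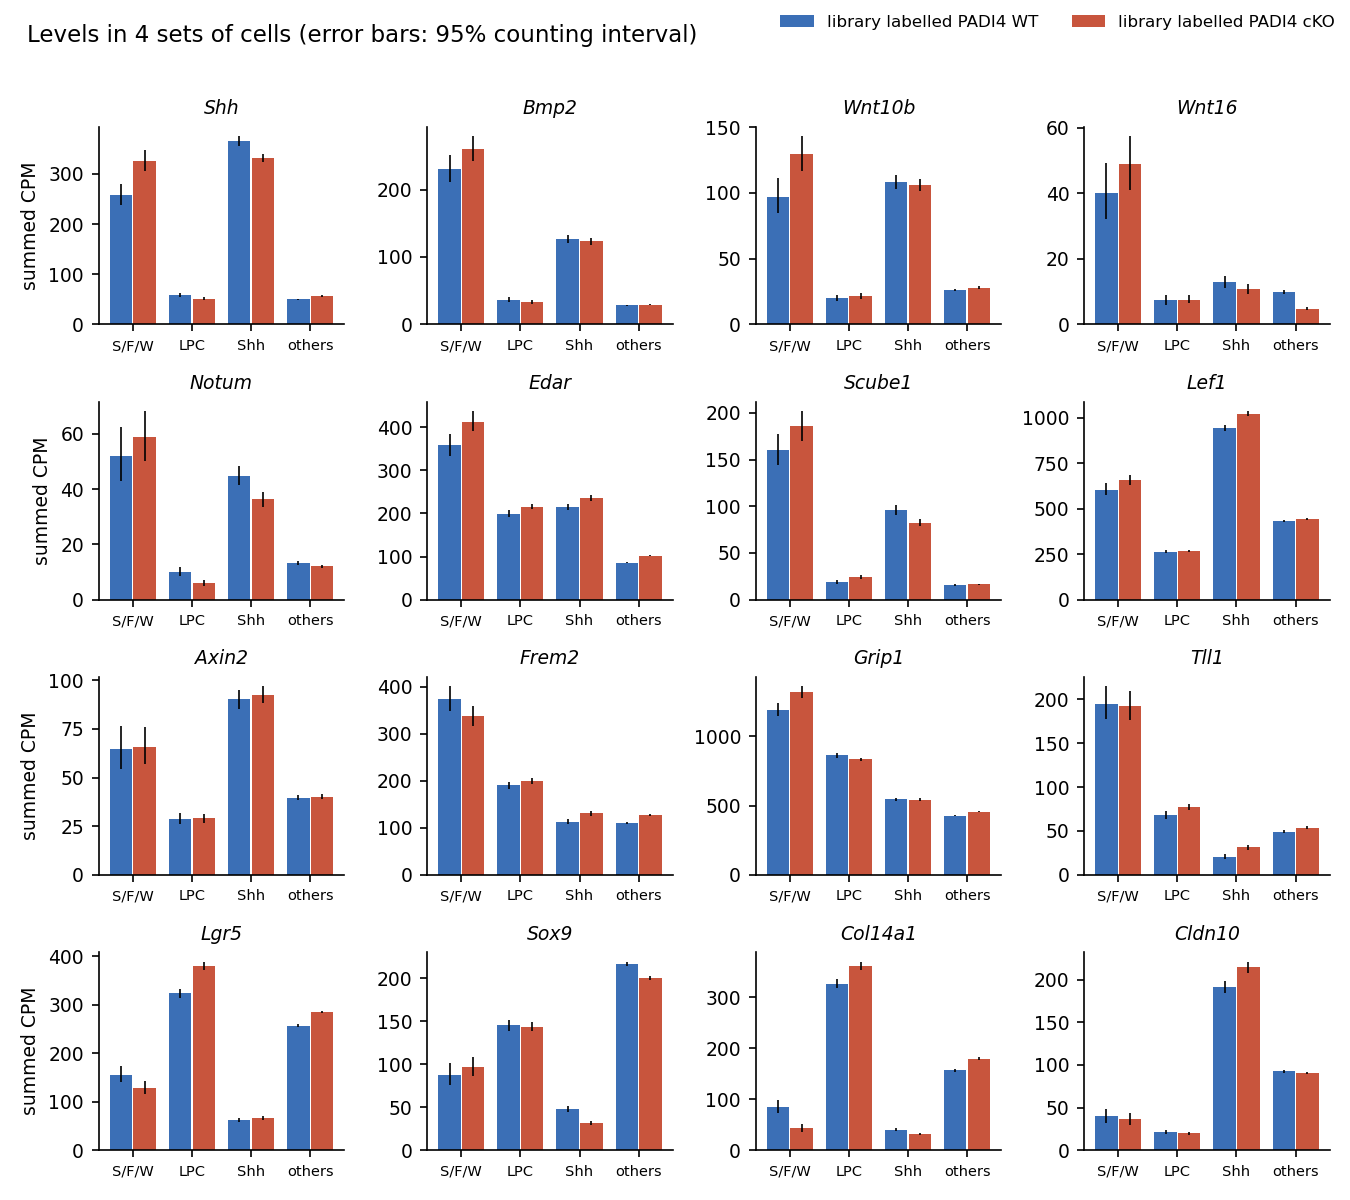
Summed CPM of 16 genes in the Sp5/Frem1/Wnt7a cells (S/F/W), the LPC group, the Shh group and all other cells, with 1 bar per library, error bars for the 95% counting interval and axes that start at 0; the other cells include both groups. Shh, Bmp2, Wnt10b and Scube1 were high in both the Sp5/Frem1/Wnt7a cells and the Shh group and low in the LPC group, whereas Frem2, Grip1 and Tll1 were highest in the Sp5/Frem1/Wnt7a cells and Lgr5 and Col14a1 were highest in the LPC group.

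Cells of the set differed among themselves in Lgr5 and Shh. The splits used here were chosen after the values had been seen and are a description of 94 and 124 cells, without those that held markers of another type. Lgr5 was at 0 in 62 and 82 cells and at 3 or more UMIs in 22 and 30, with a highest value of 75 and 91 UMIs in a cell. Shh was at 0 in 14 and 11 cells and at 3 or more in 66 and 96. Both genes reached 3 UMIs in 10 and 21 cells, and neither was seen in 7 and 6 cells. Cells with Lgr5 were deeper, with medians of 35146 and 26640 UMIs against 16828 and 18890 UMIs in cells without it.

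Cells with at least 3 Lgr5 UMIs also held genes of the ORS. Sox9 stood at 207 and 221 CPM in them and at 20.4 and 31.3 CPM in cells without Lgr5 (3.32 and 2.81). Tbx1 stood at 126 and 71.0 CPM against 2.55 and 8.27 CPM (5.41 and 3.06), and Adamts19 at 104 and 156 CPM against 6.80 and 23.6 CPM. Col14a1 stood at 204 and 113 CPM against 10.2 and 10.6 CPM (4.27 and 3.38). The intervals of these 4 ratios lay above 2 in both libraries.

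Some ligand genes, named after their values were seen, were lower in the Lgr5 cells, although the ligand gene Slit3 was higher there (2.41 and 2.91). Wnt10b stood at 63.1 and 84.2 CPM in the Lgr5 cells and at 127 and 159 CPM in cells without Lgr5 (−0.99 and −0.91), Bmp4 at −1.13 and −0.88, and Wnt16 at −2.14 and −0.98. Bmp2 differed with −1.91 in the WT-labelled library and with −0.50 in the cKO-labelled library, and Shh with −1.31 and −0.62. Of the rule genes Sp5 stood at 106 and 160 CPM against 210 and 216 CPM and Frem1 at 162 and 199 CPM against 254 and 233 CPM, while Wnt7a, with 6 and 20 UMIs in the Lgr5 cells, had ratios of −1.28 and 0.60. The part of depth and of doublets in this split was not tested.

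**Figure D4:**
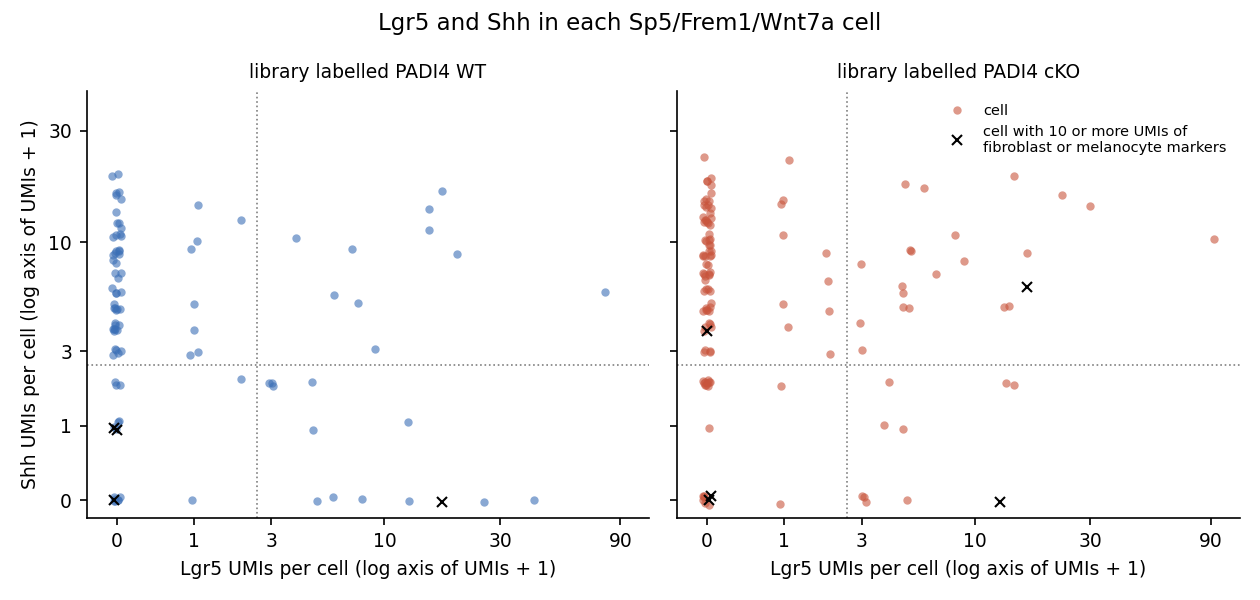
Lgr5 UMIs against Shh UMIs in each Sp5/Frem1/Wnt7a cell of the 2 libraries, on log axes of UMIs plus 1; each point is a cell, a cross is a cell with at least 10 UMIs of fibroblast or melanocyte markers and dotted lines separate fewer than 3 UMIs from 3 or more. Most cells lay in the upper left, with at least 3 UMIs of Shh and fewer than 3 of Lgr5, and 10 and 21 cells, crosses not counted, lay in the upper right with at least 3 UMIs of both.

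Cells with at least 3 Shh UMIs differed from the 14 and 11 cells without Shh in several of the genes that led the whole set. Bmp2 stood at 305 and 310 CPM against 67.7 and 94.2 CPM (2.14 and 1.69), Wnt10b at 116 and 155 CPM against 36.9 and 37.7 CPM (1.60 and 1.98), and Scube1 at 205 and 208 CPM against 15.4 and 60.3 CPM (3.60 and 1.75). Edar, by contrast, differed by 0.13 and 0.29 with intervals that held 0 in both libraries, and Sp5 by 0.12 and 0.66. Ptch1 was lower in the cells with Shh, at −0.43 and −0.34. Lgr5 was lower in the cells with Shh with the WT label (−1.29, interval −1.65 to −0.93) and higher with the cKO label (1.18, 0.47 to 2.08), so the libraries did not share its direction.

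The study's own comparison, PADI4 cKO with PADI4 WT, was made within the set and is, for most of its cells, also one between the sexes. With 1 library each it has no replicate check, and a gene was counted when its log2 ratio of summed CPM lay beyond 0.5 and its summed UMIs in the set reached 100. Of 7098 genes 192 were above 0.5 with the cKO label (2.7%) and 198 below −0.5 (2.79%), 5.49% in all, and 4.76% had an interval without 0 as well. The median over these genes was −0.00. Leaving out the 9 cells with markers of another type gave 185 of 6966 above (2.66%) and 189 below (2.71%), 5.37% in all, of which the share with an interval without 0 came to 4.72% of the genes. In the cells with Xist and without Y-linked UMIs, 16 with the WT label and 127 with the cKO label, 747 of 5481 genes were above (13.6%) and 456 below (8.32%), and these ratios rest on few UMIs with the WT label.

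The largest ratios included genes of the sex chromosomes. Xist, the RNA of the inactive X chromosome, stood at 238 and 1361 CPM (2.51), its antisense gene Tsix at 14.7 and 64.6 CPM (2.12), and the Y-linked genes Uty and Eif2s3y had 181 and 113 UMIs with the WT label and 0 with the cKO label. In the cells with Xist and without Y-linked UMIs the ratio of Xist was 0.30 and that of Tsix −0.16. The remaining genes with the 8 highest ratios were Gm10260, Gm11361, Krtap17-1, H2-K1, Dct and Dab1. Those with the 8 lowest were, besides the Y-linked pair, Stfa3, Gm8797, Ly6d, Cdkn1c, Meis2 and Krt25, and the ratio of Krt25 (−1.68) turned to 0.68 without the cells of high doublet score.

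Some of these genes differed in the other cells too. Gm10260 stood at 19.3 and 174 CPM (3.15) and differed by 3.57 in the other cells, and Gm8797 by −2.57 and −2.81. Both symbols belong to predicted genes whose reads can come from a near-identical copy. Dct, a melanocyte gene, was at 1.65 with the 3 melanocyte-marked cells and at −0.33 without the 9 cells with markers of another type, and Cdkn1c, a CDK inhibitor gene, went from −2.07 to −0.42 and Meis2 from −1.92 to −0.21. Dab1, an adaptor of reelin signalling, stood at 23.9 and 67.7 CPM (1.49, interval 1.05 to 1.97) and at 0.43 in the other cells.

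Among the signalling lists few genes passed 0.5. Wif1 stood at 72.2 and 128 CPM (0.82, interval 0.56 to 1.11), while in the other cells its ratio had the opposite sign (−0.63). Wnt10a was above at 39.1 and 57.8 CPM (0.56) and Wnt5a below at 53.8 and 37.6 CPM (−0.52). Ror1 was below at 82.3 and 36.6 CPM (−1.17, −1.53 to −0.82) and at −0.01 in the other cells. Nfkbia and Relb, both of the ectodysplasin list, were above at 0.74 and 0.71. Shh (0.33), Edar (0.21), Bmp2 (0.18), Lef1 (0.12) and Ptch1 (0.09) did not pass 0.5, and Sp5 and Frem1 lay within 0.5 of 0 as well.

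Of the cell cycle lists, 4 of 51 G2 and M phase genes were below, against 2.79% of all genes, Mki67 (472 and 289 CPM, −0.71), Ckap2l (−0.73), Hmmr (−0.58) and Anln (−0.65), and none was above, with a median of −0.22. The list summed to 8323 CPM with the WT label and 7050 CPM with the cKO label (−0.24, interval −0.27 to −0.21). This was not particular to the set. The same sum was 8160 and 7446 CPM in the other cells, 10573 and 8087 CPM in the LPC group and 10671 and 10010 CPM in the Shh group. S phase genes gave none of 42 past 0.5 and a sum that differed by 0.08. Pcna, a replication clamp gene, differed by 0.01 and Mcm5, of the replicative helicase, by 0.09. In the other cells Mki67 differed by −0.27.

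Of 13 immediate early genes 4 were above, against 2.7% of all genes, Fos (0.66), Fosb (0.81), Junb (0.63) and Atf3 (0.87), and the heat shock gene Hspa1a was below (−0.95). The list summed to 2281 and 2787 CPM (0.29, interval 0.24 to 0.34). Its sum was also higher with the cKO label in the other cells (2651 and 3052 CPM), the LPC group (2054 and 2763 CPM) and the Shh group (2310 and 2540 CPM). Fos and Fosb were also above in the other cells, at 0.45 and 0.86, whereas Atf3 was at −0.24 there. In the cells with Xist and without Y-linked UMIs Hspa1a was at 1.39, on 3 UMIs with the WT label.

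Other list genes above 0.5 were the placode gene Trps1 (282 and 477 CPM, 0.76), Mme (0.67), Adamts19 (0.51) and the ribosomal protein gene Rpl26 (0.74, with 0.70 in the other cells). Other list genes below −0.5 were Itga3 (−0.60), Tnc (−0.54), Tbx1 (−0.68), Prdm1 (−0.59), the suprabasal gene Krtdap (−1.52) and Col1a1 (−0.96). Of 14 genes that the study names and that could be compared, Fos, Fosb and Rpl26, or 3, were above, against 2.7% of all genes. None was below, and among the others were Nasp (0.13), Hdac1 (0.13), Id3 (0.45), Egr1 (0.31) and Jun (0.22).

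**Figure D5:**
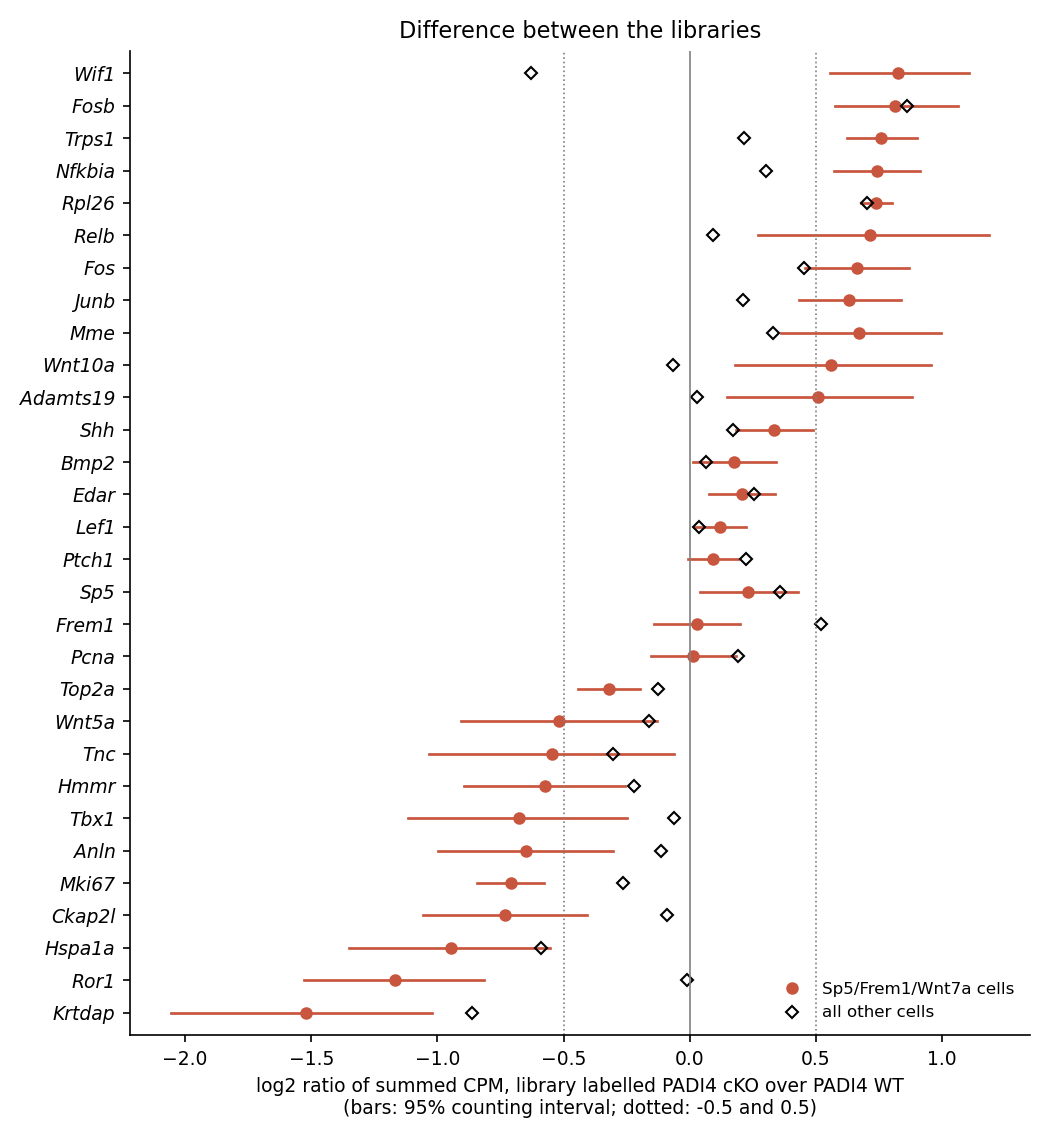
Log2 ratio of summed CPM between the library labelled PADI4 cKO and that labelled PADI4 WT for 30 genes, as red points with 95% counting intervals for the Sp5/Frem1/Wnt7a cells and as open diamonds for all other cells; dotted lines mark −0.5 and 0.5. Wif1 and Ror1 lay far from their diamonds (0.82 against −0.63 and −1.17 against −0.01), while Rpl26 and Fosb lay close to theirs.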

How the data were processed

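Per the labels and the study's methods, the authors made 10x Genomics 3′ libraries and processed the reads with Cell Ranger 7.1.0 on mm10; the deposited values used here were raw UMI counts per gene and droplet for 32285 genes and 1786872 (WT) and 1787390 (cKO) barcodes. From these counts, droplets were filtered and chosen as described above, and UMIs were summed over each set and scaled to CPM. Because each genotype had 1 library, no test was run. Log2 ratios had 0.5 UMI added to each sum, with exact conditional binomial 95% intervals, and shares had exact (Clopper-Pearson) intervals. Doublets were scored with Scrublet in Scanpy 1.11.5, over droplets with at least 1000 UMIs, and kept; the automatic thresholds were 0.526 and 0.176, and a score of 0.2 was used for both libraries. Free RNA was read from droplets with fewer than 100 UMIs and accounted for at most 8.05% and 12.4% of UMIs. Thinning drew 2000 UMIs from each cell.

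Named genes were the rule genes, listed genes past the limits or with many UMIs, the 15 highest and 10 lowest ratios to the other cells, and the 8 highest and lowest between libraries. The members and lists were chosen with earlier results of these data known. Python 3.11.15, NumPy 2.4.6, SciPy 1.17.1 and pandas 2.3.3 were used. Alternatives are given in the closing section. Some genes of the lists are not reported here.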

Additional observations from a re-analysis of the deposited data

Results flagged for a closer look

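Pmel, a melanocyte pigment gene, moved in opposite directions in the libraries: its log2 ratio between the Sp5/Frem1/Wnt7a cells and the other cells was −4.07 with the WT label and 1.89 with the cKO label. The difference was not tested. Without the 9 cells with fibroblast or melanocyte markers the ratios were −1.29 and −1.42.

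Outside the filters, 7 droplets of the cKO-labelled library and 3 of the WT-labelled library met the rule on genes. All of them held more than 8000 genes, and 4 and 2 also held more than 60000 UMIs. They entered no comparison.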

How the results depend on the processing

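No paired analysis was possible because each genotype had 1 library, and for the same reason no replicate could be left out and no ratio has an error between animals. The values are limited by the UMI threshold of the rule, by genes with few UMIs, by the 9 cells with markers of another type, whose removal was chosen after seeing the data, and by the difference in sex-linked genes between the libraries. Of 3886 values of single named genes against the other cells 29, all of them beyond 1 or −1 in that library, changed sign under an alternative and 653 moved by more than the counting interval; of 1781 values between the libraries 24 and 213 did. The cause was not tested.

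The share of cells in the set was 1.67% and 2.62% (WT and cKO label) with at least 3 UMIs of Sp5, Frem1 and Wnt7a, 0.496% and 0.950% with at least 8, and 0.714% with the WT label among cells with Xist and without Y-linked UMIs. Genes higher than in the other cells numbered 369 of 13542 in the main comparison. They numbered 206 of 10011 after thinning to 2000 UMIs and 177 of 10879 with a minimum of 500 UMIs. Lower genes numbered 265 of 10879 with that minimum, against 415 of 13542. Between the libraries, genes above and below numbered 192 and 198 of 7098 tested in the main comparison. In cells with Xist and without Y-linked UMIs they numbered 747 and 456 of 5481, and after thinning 20 and 24 of 657. With a minimum of 50 UMIs they numbered 403 and 444 of 9023, and with a minimum of 500 UMIs 28 and 12 of 1912.

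Sign changes against the other cells were as follows. With at least 3 UMIs of the 3 genes Krt6a was at 0.20 with the WT label. With at least 8, the ratios with the WT label were −2.32 for Col1a1, −1.18 for Col3a1, −0.69 for Lum and −0.91 for Cdkn1c, and those with the cKO label were −0.11 for Lum and −0.79 for Pmel. With a rule on UMIs per 10000, Pmel was at −1.04 with the cKO label and Cdkn1c at −0.65 with the WT label. After thinning, ratios with the WT label were 0.61 for Wnt11, 0.040 for Elovl3, 0.29 for Krt8 and 0.18 for Krt18, and those with the cKO label were 0.58 for Fzd4, 0.40 for Fgf5, 0.060 for Elovl3, 0.28 for Krt18 and −0.17 for Meis2. Without the cells with markers of another type, ratios with the WT label were −0.43 for Lama2, −0.40 for Nid1, −0.34 for Col3a1, −0.038 for Lum and −0.57 for Cdkn1c, and those with the cKO label were −2.05 for Lama2, −0.052 for Nid1, −1.25 for Col1a1, −0.39 for Col1a2, −1.42 for Pmel and −0.55 for Meis2.

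Sign changes between the libraries were as follows. With at least 3 UMIs of the 3 genes Krt25 was at 0.18 and Krt73 at 1.63. With at least 8, Wnt5a was at 0.79, Col1a1 at 3.68, Lum at 0.55, Prdm1 at 0.22, Cdkn1c at 0.10, Prrx1 at 1.36 and Meis2 at 1.08. In cells with Xist and without Y-linked UMIs, Krtdap was at 1.57, Col1a1 at 2.78, Lum at 2.81, Hspa1a at 1.39, Tsix at −0.16 and Meis2 at 0.19. Without doublets by score, Krt25 was at 0.68 and Krt73 at 0.59. After thinning, Tnc was at 0.74, Pparg at −1.13 and Syt16 at −0.40. Without the cells with markers of another type, Tagln was at −1.70, Lum at 1.16, Dct at −0.33 and Pmel at −0.42.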
